A study of Mnemiopsis leidyi with 31 samples.

Results

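The 91 most abundant transcripts of the embryo of the comb jelly Mnemiopsis leidyi at 1 hour post fertilization (hpf) were followed through the hours to 9 hpf. They were the transcripts with more than 1000 CPM (the count per 1000000 counts of the library) in both libraries of 1 hpf whose codes start with 2013, 2013_21 and 2013_41, and they made up 91 of 31067 transcripts in the count table (0.293%). They were chosen by their measured CPM at 1 hpf, and levels at that hour are given as a description. They are called maternal here because 1 hpf was the earliest hour sampled. Unfertilized eggs were not analysed here, so that RNA laid down in the egg and RNA made in the first hour could not be told apart.

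An egg carries a store of messenger RNA made while it grew in the mother, and this store supports the first cell divisions, before the genome of the embryo is transcribed at a high rate. In animals studied so far, part of the store is degraded as transcription from the embryo's own genome takes over, while transcripts that every dividing cell needs are kept or replaced by new copies. Comb jellies develop fast, passing through cleavage and gastrulation to a swimming larva with comb rows in about a day or less, so that hourly samples span these phases. The libraries were made from polyadenylated RNA, and a change in the amount of a transcript and a change in the length of its poly(A) tail could not be told apart.

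The series held 31 RNA-seq libraries of whole embryos, each from a pool of 100 to 200 embryos of animals caught in the wild, and the labels give no strain, genotype or treatment. There were 3, 4, 3, 3, 3, 4, 4, 5 and 2 libraries at 1 to 9 hpf. Of these, 19 had codes of 2013 and 12 had codes of 2012. The digit after the year divided the libraries of 2013 into 4 code series: 2013_4 (6 libraries, at 1, 2, 6, 7, 8 and 9 hpf), 2013_3 (3 libraries, at 2, 3 and 4 hpf), 2013_1 (2 libraries, at 7 and 8 hpf) and 2013_2 (8 libraries, at each hour from 1 to 8 hpf). The labels call the libraries of an hour replicates, without saying what the codes stand for or which pools came from the same spawning. The p-values below therefore reflect only how far these libraries spread.

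Library totals ran from 17608264 to 116632427 counts. A few libraries stood apart, which bears on every result that uses them. Over the 91 transcripts, the median absolute log2 difference between 2 hpf 2013_42 and the mean of the other libraries of 2013 was 0.79 at its own hour, against 0.41 for 6 hpf and 0.40 for 7 hpf. The 8 hpf library 2013_48 differed by 0.62 from the other 8 hpf libraries of 2013 and by 0.33 from the 1 hpf libraries. In series 2013_2, 7 hpf 2013_27 differed by 0.67 from the other 7 hpf libraries of 2013 and by 0.21 from those of 6 hpf. From the libraries of 2013 of their hour, 7 hpf 2012_N1 differed by 0.91 and 5 hpf 2012_N3 by 0.63. Among the libraries of 2012, the counts of 1 hpf 2012_N7 were at or above those of 9 hpf 2012_37 in every transcript, the smaller holding 83.7% of the total of the larger, and the counts of 4 hpf 2012_N4 were at or above those of 5 hpf 2012_14, which held 68.8% of the total. Such columns are called overlapping below, and no label says whether counts of the smaller were added into the larger.

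The files number the transcripts and do not name them, and 0 of the 31067 numbers matched the RefSeq gene table (assembly crg_Mlei_v2), so that no role can be stated for any of them. At 1 hpf their mean level over both selecting libraries ran from 1020 to 24850 CPM with a median of 1698 CPM. It was between 1000 and 2000 CPM for 56 of them and above 5000 CPM for 9. Just inside the limit, the lower of the 2 values was 1001.35, 1001.59 and 1006.56 CPM. Just outside, it was 986.9, 979.8 and 975.7 CPM, and 64 transcripts passed 1000 CPM in 1 of the 2 libraries and not in the other. The choice thus took the top of a continuous range.

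Abundance by count favours long transcripts. The 91 had a median length of 1917 bases (369 to 12765, with quartiles of 961.5 and 3255), against 1078 bases (300 to 29348, with quartiles of 581 and 1978) over all transcripts. Scaled by length as RPKM (the CPM per kilobase of transcript, computed here with the total of each library), their 1 hpf levels ran from 91.3 to 15798 RPKM with a median of 922 RPKM. On that scale 58 of the 91 were among the 91 highest, and the lowest of them ranked 1054.

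Mle_005005 (1573 bases) was the most abundant transcript at 1 hpf by count and per length, at 15798 RPKM. Next by count at 1 hpf were Mle_011676 (1984 bases, 5523 RPKM) and Mle_004209 (2643 bases, 3959 RPKM). Mle_011676 was at 12883 CPM in 1 hpf 2013_41 and 9034 CPM in 1 hpf 2013_21, and ran from 5110 to 10431 CPM with a median of 7798 CPM over the 17 later libraries of 2013. Mle_004209 was at 12841 and 8084 CPM in the same 1 hpf libraries, and ran from 4076 to 27069 CPM with a median of 8053 CPM later. The most abundant transcript of every one of the 31 libraries was one of the 91, and in 28 of them it was Mle_005005.

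Together the 91 transcripts took between 17.2% and 25.1% of the counts of each of the 31 libraries, with a median of 21.01%. In the libraries of 2013, their share was 24.9% in 2013_41 and 22.1% in 2013_21 at 1 hpf, and at 2 hpf 23.9% in 2013_42, 19.8% in 2013_32 and 24.4% in 2013_22. It was 21.4% in 2013_33 and 24.99% in 2013_23 at 3 hpf, 19.03% in 2013_34 and 22.1% in 2013_24 at 4 hpf, and 19.1% in 2013_25, the single library of 5 hpf. It was 22.2% in 2013_46 and 23.4% in 2013_26 at 6 hpf, 21.8% in 2013_47, 20.4% in 2013_17 and 21.8% in 2013_27 at 7 hpf, 18.04% in 2013_48, 18.4% in 2013_18 and 20.2% in 2013_28 at 8 hpf, and 20.4% in 2013_49 at 9 hpf. The values of 6 and 7 hpf lay within the range of the earlier hours, and both 2013_48 and 2013_18 at 8 hpf lay below every earlier library of 2013. Among libraries of 2013 of the same hour the shares lay farthest apart at 2 hpf, and with the libraries of 2012 included they lay farthest apart at 6 hpf, with 17.2% in 2012_23 and 23.4% in 2013_26. The 95% Wilson interval of a share, which covers counting error only, was narrow: for 1 hpf 2013_41 it was 24.85% to 24.88%. The shares in the libraries of 2012 ran from 17.2% in 6 hpf 2012_23 to 25.1% in 7 hpf 2012_N1 with a median of 20.9%. In pools of whole embryos, fewer cells of a kind and less RNA per cell cannot be told apart, and a share can fall because other transcripts rose.

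Mle_005005 alone took between 0.513% (2 hpf 2013_42) and 8.66% (3 hpf 2013_23) of a library. Without it, the mean share in the libraries of 2013 was 20.99 ± 3.39%, 19.5 ± 3.44%, 17.4 ± 1.57% and 16.4 ± 0.532% over the hours 1, 2, 3 and 4, 15.3% at hour 5, 18.3 ± 1.69%, 19.5 ± 1.31% and 16.95 ± 0.305% over the hours 6, 7 and 8, and 18.99% at hour 9 (SD, with n = 2 at 1, 3, 4 and 6 hpf, n = 3 at 2, 7 and 8 hpf and a single library at 5 and 9 hpf). The counts of Mle_005005 stayed in the library total. In 2013 the lowest mean shares were those of 4 and 5 hpf, and the 4 hpf libraries (15.997% and 16.75%) overlapped those of 8 hpf (16.67% to 17.28%). The libraries of 2012 did not show this, with 18.9% at 4 hpf and a mean of 19.9% at 5 hpf, against a mean of 17.7% at 6 hpf and 17.9% at 9 hpf. At 4 and 5 hpf code series 2013_4 had no library. Within series 2013_2 the share without Mle_005005 was 18.6%, 17.1%, 16.3%, 15.997%, 15.3%, 17.1%, 18.5% and 16.9% at 1 to 8 hpf.

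**Figure D1:**
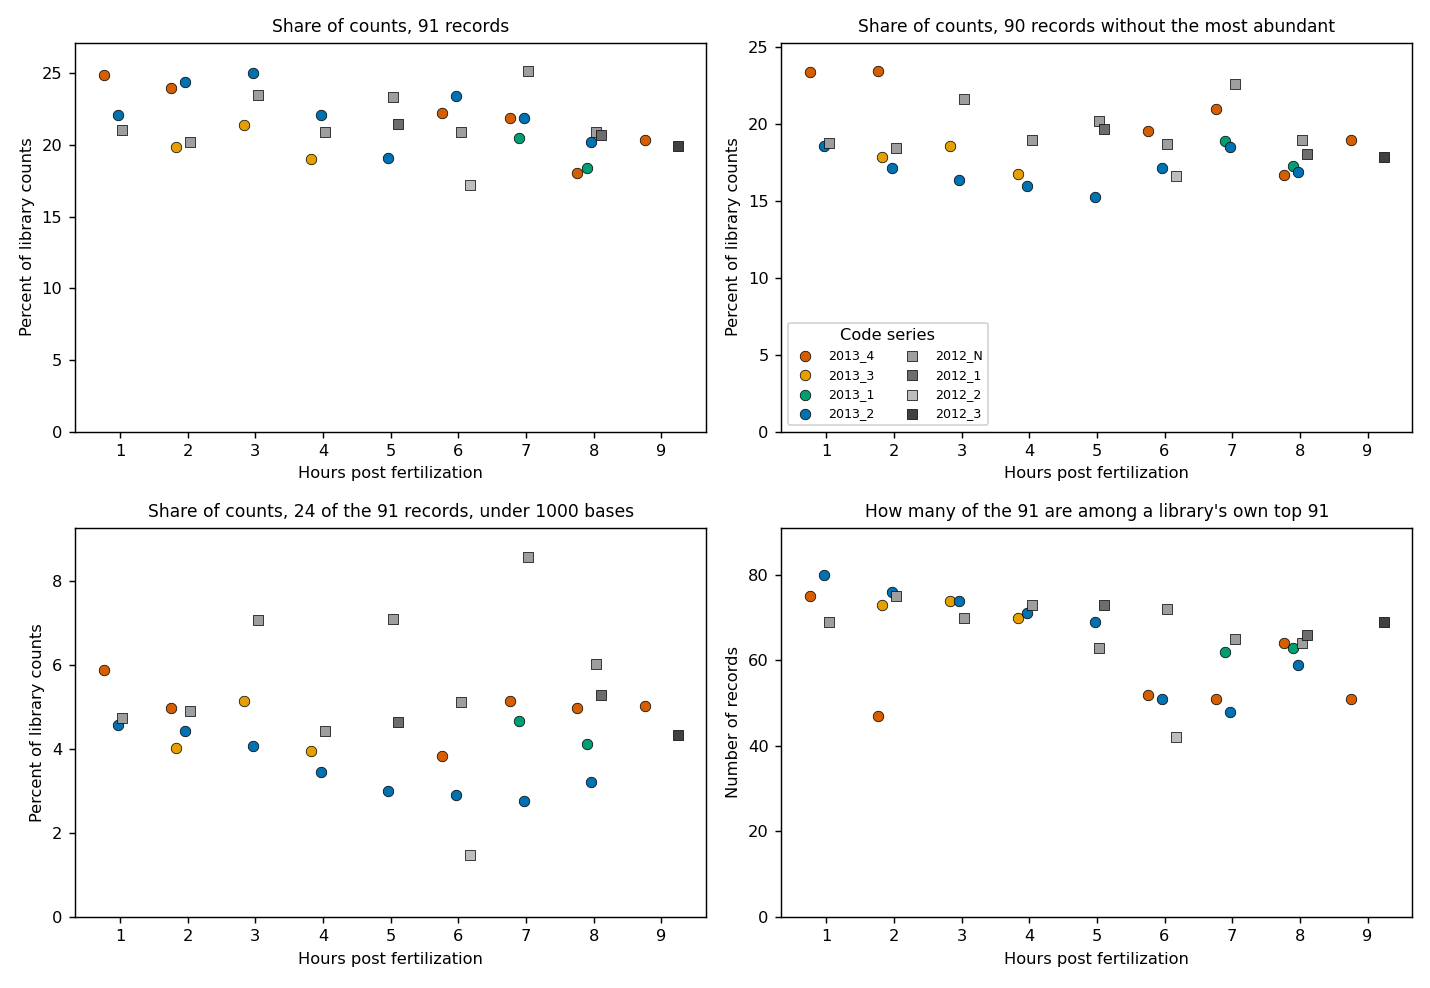
Share of library counts taken by the 91 transcripts (top left), the same without Mle_005005 (top right), the share of the 24 of them under 1000 bases (bottom left), and how many of the 91 were among the 91 most abundant transcripts of the library itself (bottom right), for each of the 31 libraries against the hour. Points are libraries, circles 2013 and squares 2012. The total stayed between 17.2% and 25.1%, while the count in the last panel ran from 42 to 80.

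Whether the share stayed level depended on the scaling. By library totals its mean in 2013 ran from 18.9% at 8 hpf to 23.5% at 1 hpf. TMM factors (trimmed mean of M values) scale each library by a trimmed and weighted mean of the log ratios of its transcripts to a reference library. They were computed here over all 31 libraries, and the tests below compute them anew within each fit. With library totals multiplied by the factors from all 31 libraries, the mean was 31.04%, 32.8%, 24.3%, 19.2%, 15.9%, 22.6%, 22.4%, 15.6% and 18.2% over the hours 1 to 9. On that scale the 8 and 9 hpf values were thus below those of 1 and 2 hpf. The highest values were 50.5% in 2 hpf 2013_42 and 37.7% in 1 hpf 2013_41, where the 91 took 23.9% and 24.9% of the counts. Without 2013_42 the mean scaled level at 2 hpf was 23.9%.

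The ranks changed as well. In each library the 91 most abundant transcripts of that library took 20.7% to 32.2% of its counts. Of these, 75 and 80 belonged to the 91 of 1 hpf in 1 hpf 2013_41 and 1 hpf 2013_21. Over 2 to 5 hpf of 2013 the number ran from 47 to 76 with a median of 72, or from 69 to 76 without 2 hpf 2013_42, the library at 47. Over 6 to 9 hpf it ran from 48 to 64 with a median of 52. The libraries of 2012 had between 42 and 75, with 42 in 6 hpf 2012_23 and 69 in 9 hpf 2012_37, whose counts were nowhere above those of 1 hpf 2012_N7.

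At 9 hpf, library 2013_49 had 130 transcripts over 1000 CPM, of which 62 belonged to the 91 and 68 did not. Of these 68, 16 had passed 1000 CPM in 1 of the selecting libraries, and 10 had been under 10 CPM in both. The 68 took 11.97% of the counts at 9 hpf, against 3.72% on average at 1 hpf. High abundance was kept by few in every library: 23 of the 91 were over 1000 CPM in all 31 libraries, 29 in all 19 of 2013 and 36 in all 12 of 2012. Low values were rare. In all 31 libraries, 88 of the 91 were over 100 CPM, and the lowest value of any of them was 46.2 CPM.

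From 1 to 9 hpf in the libraries of 2013, 21 of the 91 transcripts fell, 64 held and 6 rose. Here a fall is a ratio of at most 0.5 and a rise one of at least 2 between the CPM of the single 9 hpf library, 2013_49, and the mean of both 1 hpf libraries. Of the 6675 transcripts that averaged 10 CPM or more at 1 hpf, 45.0% fell, 47.2% held and 7.87% rose by the same measure. Because the 1 hpf values chose the 91, these counts carry no test. The median ratio of the 91 was 0.76, with quartiles of 0.54 and 1.17, and the ratios ran from 0.041 to 3.51.

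The 21 transcripts that fell took 1.23% of the library at 9 hpf, against 5.03% on average at 1 hpf. The 6 that rose took 2.57% at 9 hpf, against 0.978% at 1 hpf. The 64 that held took 16.6% at 9 hpf, against 17.5% at 1 hpf, and so carried most of the share at both ends. The fold limit and the scaling set these counts: with TMM factors 43 fell and 2 rose, against 62.9% and 4.4% of the 6675 transcripts, and at 1.5-fold 34 fell and 13 rose, against 58.7% and 12.6%.

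The 9 hpf value rests on 1 library. With the mean of the 3 libraries of 8 hpf in its place, 5 of the 91 fell, 86 held and 0 rose, against 7.67%, 87.0% and 5.35% of all transcripts. With the mean of the 3 libraries of 2 hpf as the start, which the choice did not use, 13 fell, 73 held and 5 rose by 9 hpf, against 41.3%, 50.7% and 8.01% of all, and without 2 hpf 2013_42 the counts were 19 that fell and 14 that rose, against 48.8% and 9.59% of all. From 2 to 8 hpf, 8 fell, 82 held and 1 rose, against 5.97%, 87.6% and 6.48% of all. In each of these forms most of the 91 stayed within 2-fold.

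**Figure D2:**
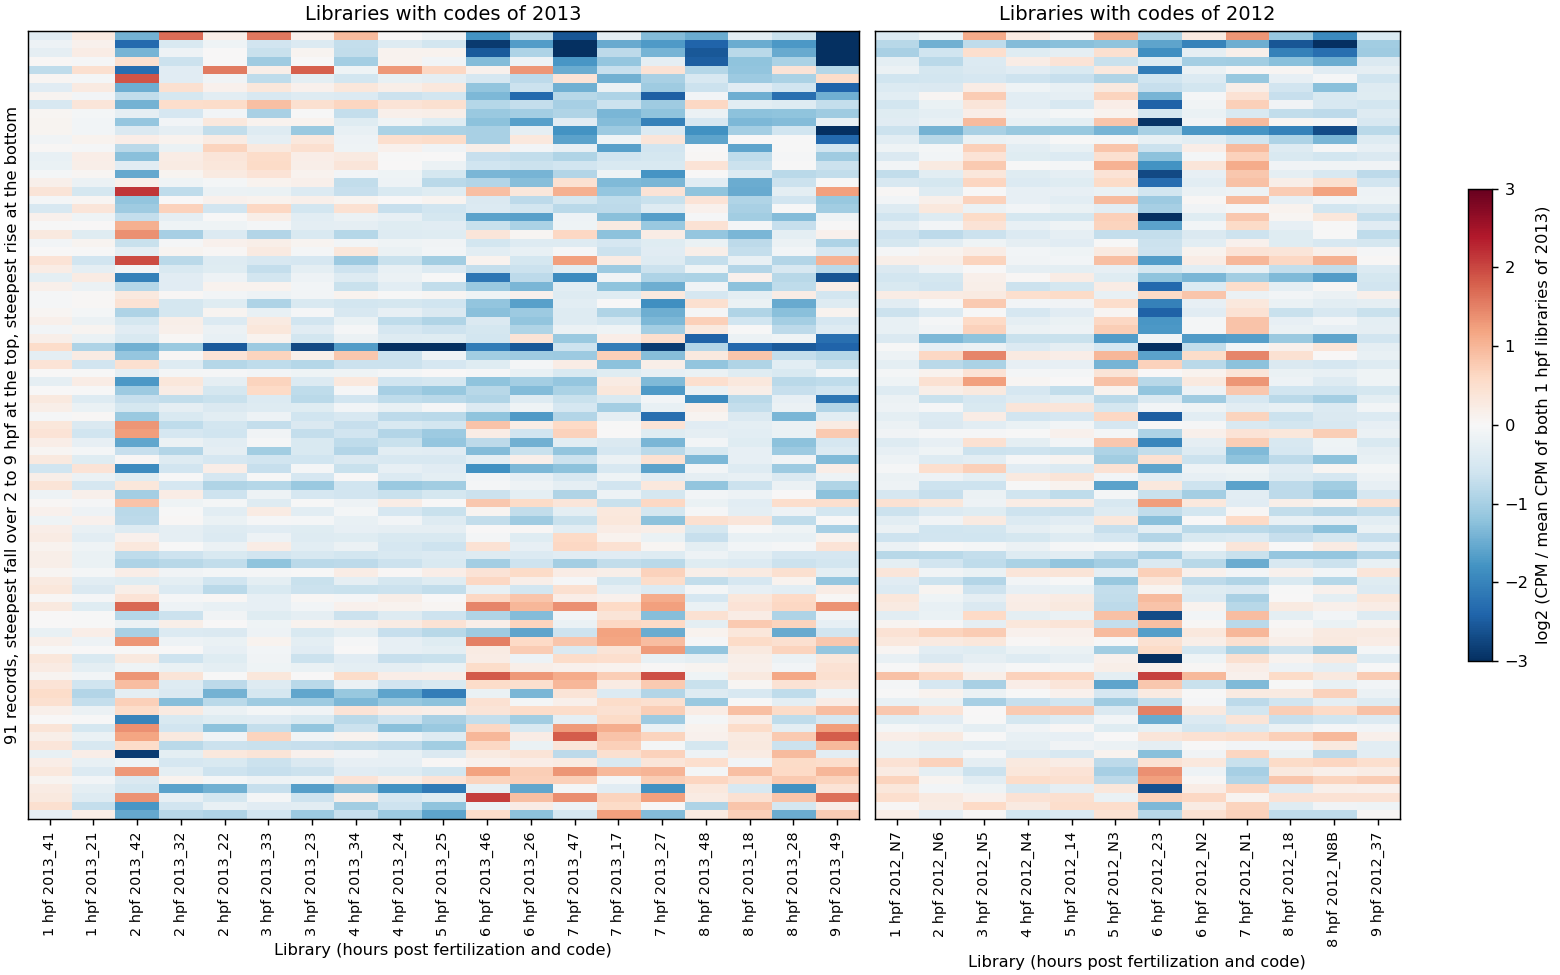
Level of each of the 91 transcripts (rows, ordered by their slope over 2 to 9 hpf) in each library (columns, 2013 left and 2012 right, in order of the hour, and within an hour of 2013 by series 4, 3, 1 and 2), as log2 of the CPM over the mean CPM of both 1 hpf libraries of 2013; colours end at 3 and -3. The upper rows are blue in the late libraries of 2013_4, most of all in 9 hpf 2013_49. The columns of 2 hpf 2013_42 and 6 hpf 2012_23 differ from their neighbours.

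A test that left out the selecting libraries asked which of the 91 rose or fell with the hour. The slope of log2 level on the hour was fitted over the 17 libraries of 2013 at 2 to 9 hpf with TMM factors for all 21199 transcripts that passed the filter on low counts, all 91 among them. By edgeR's quasi-likelihood test with Benjamini-Hochberg adjustment over all transcripts tested and a threshold of 0.05, 1 of the 91 rose and 18 fell. Over all transcripts tested, 39.9% rose and 13.3% fell, and the median slope was -0.05 log2 per hour over the 91 and 0.19 over all. The 94 transcripts between 500 and 1000 CPM at 1 hpf had 0 that rose and 21 that fell, with a median slope of -0.06, and the 1423 between 100 and 500 CPM had 18 that rose and 389 that fell, with a median of -0.07. The share that fell was thus 19.8% of the 91, 22.3% of the next class and 27.3% of the class below it, all with TMM factors, and the differences between the classes were not tested.

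The 18 that fell had slopes of -0.10 to -0.41 with a median of -0.18 log2 per hour. Of the 18, 9 had also fallen at least 2-fold from 1 to 9 hpf and 9 were among those that held. The other 12 of the 21 that fell 2-fold did not pass the slope test, nor did any of the 6 that rose 2-fold. Scaling changed the count: with RLE factors (the scaling of DESeq2) 3 of the 91 rose and 6 fell, where 9965 of the 21199 transcripts rose and 8.45% fell, and with library totals alone 7 rose and 7 fell, where 43.0% and 7.34% of all did. Under all 3 scalings 6 of the 18 fell and the 1 that rose also passed, and 0 of these 19 transcripts changed direction. The number with a negative slope was 63, 48 and 51 of the 91 with TMM, RLE and no factors. With TMM factors this was 69.2% of the 91, against 36.2% of all transcripts tested. In the 2 next lower classes of abundance at 1 hpf it was 73.4% (500 to 1000 CPM) and 78.4% (100 to 500 CPM).

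**Figure D3:**
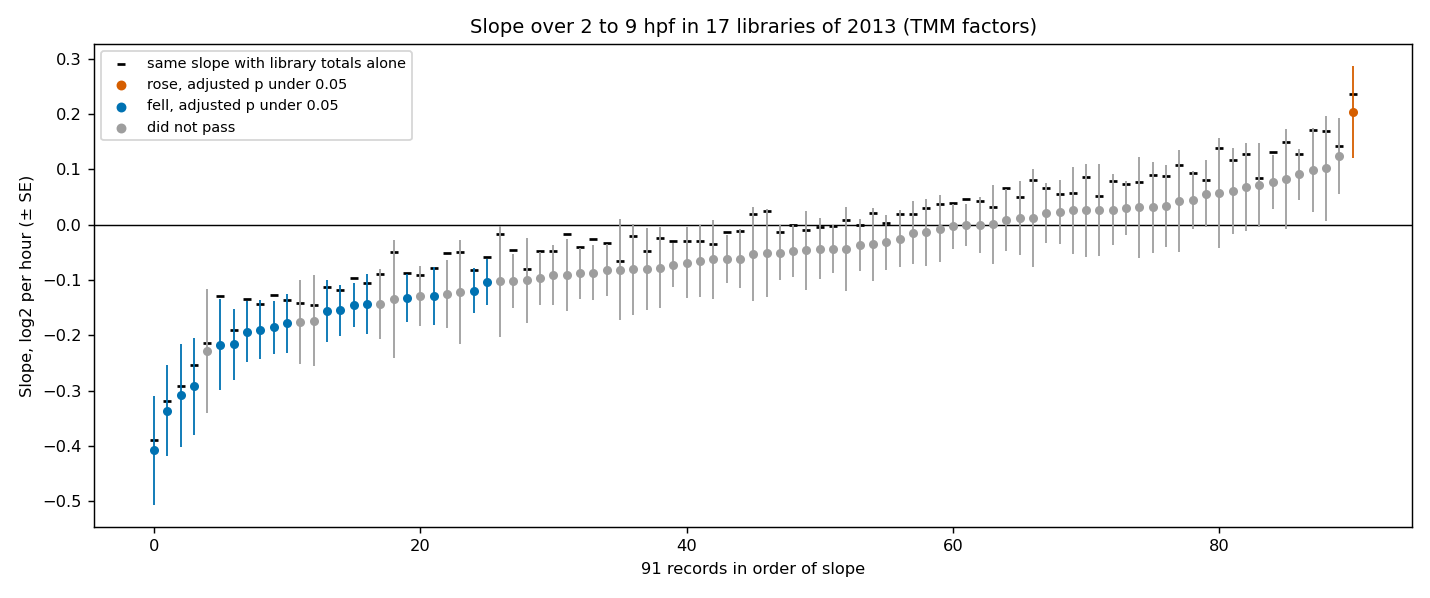
Slope of log2 level per hour over 2 to 9 hpf for each of the 91 transcripts, in order, from 17 libraries of 2013 with TMM factors (points, with SE) and with library totals alone (dashes). The 18 blue points fell and the orange point rose at an adjusted p under 0.05; every dash lies above its point.

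Mle_024479 (1242 bases) had the steepest fall. Its level in 2013 was 2946 and 4534 CPM at 1 hpf (2013_41 and 2013_21) and 1398, 12034 and 4251 CPM at 2 hpf (2013_42, 2013_32 and 2013_22). It was 11142 and 4091 CPM at 3 hpf (2013_33 and 2013_23), 7258 and 3750 CPM at 4 hpf (2013_34 and 2013_24) and 3339 CPM at 5 hpf. It was 1079 and 2088 CPM at 6 hpf (2013_46 and 2013_26), 629, 3063 and 1519 CPM at 7 hpf (2013_47, 2013_17 and 2013_27), 1329, 2979 and 2362 CPM at 8 hpf (2013_48, 2013_18 and 2013_28) and 242 CPM at 9 hpf. Each library of 6 to 9 hpf was below each of 2 to 5 hpf except 2 hpf 2013_42, and the 3 libraries of 2013_3 were the 3 highest. Its slope was -0.41 log2 per hour (SE 0.10, adjusted p = 0.00239, edgeR), and without code series 2013_3 it was -0.24 (adjusted p = 0.0625). In 2012 it ran from 998 to 9362 CPM, with 2814 CPM at 1 hpf and 2709 CPM at 9 hpf, in the columns that overlap.

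Mle_021210 (1866 bases) fell next in steepness, with a slope of -0.34 log2 per hour (SE 0.08, adjusted p = 0.00258, edgeR). It was at 1007 and 1223 CPM at 1 hpf, 223, 809 and 1025 CPM at 2 hpf, 752 and 840 CPM at 3 hpf, 677 and 852 CPM at 4 hpf and 767 CPM at 5 hpf, in the same order of libraries. It was at 152 and 351 CPM at 6 hpf, 131, 390 and 346 CPM at 7 hpf, 210, 397 and 339 CPM at 8 hpf and 46.2 CPM at 9 hpf, the lowest value of any of the 91. Apart from 2 hpf 2013_42, no library of 6 to 9 hpf reached the lowest of 2 to 5 hpf. The slope passed in every alternative tried except without code series 2013_2, where it was -0.30 (adjusted p = 0.0623).

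Mle_016925 (546 bases) was the 1 transcript whose slope rose (0.20 log2 per hour, SE 0.08, adjusted p = 0.0447, edgeR). In series 2013_4 it was at 626, 2641, 1243, 2182 and 3078 CPM at 2, 6, 7, 8 and 9 hpf, and in series 2013_1 at 4251 and 2941 CPM at 7 and 8 hpf. In series 2013_2, in contrast, it was at 967, 851, 853, 600, 768, 727 and 640 CPM at 2 to 8 hpf. In 2013_4 the levels of 6 to 9 hpf were above that of 2 hpf 2013_42, the single early library of that series in the fit, which stood apart, and in 2013_2 the levels of 6 to 8 hpf lay within the range of those of 2 to 5 hpf. With code series as a term in the fit (the replicate block by code series), its slope was 0.01 (adjusted p = 0.872), and the call was lost in 17 of 29 alternatives, among them each of 9 single libraries (2013_22, 2013_32, 2013_42, 2013_23, 2013_24, 2013_34, 2013_17, 2013_18 and 2013_49), with adjusted p from 0.0578 to 0.0897. Without 2 hpf 2013_42, 7 of the 91 rose and 19 fell, against 37.8% and 19.2% of all transcripts tested, and without 8 hpf 2013_48, 3 rose, against 37.5%.

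The hour and the code series overlapped in part, since series 2013_3 had libraries at 2 to 4 hpf alone and 2013_1 at 7 and 8 hpf alone. With the replicate block by code series, 0 of the 91 rose and 24 fell with the hour, and 13 of the 18 were among these 24. In that fit 42.4% of all transcripts rose and 2534 of the 21199 fell. Without series 2013_2, 1 rose and 3 fell, against 20.8% and 2.06% of all, and without series 2013_4, 11 rose and 21 fell, against 24.6% and 17.1% of all. Within series 2013_2 (7 libraries, 2 to 8 hpf) 45 of the 91 had a negative least-squares slope of log2 CPM, against 59.8% of the 7257 transcripts that averaged 10 CPM or more over 2 to 9 hpf. Within series 2013_4 (5 libraries at 2 to 9 hpf) 45 of the 91 had a negative slope, or 52 without 2 hpf 2013_42, against 36.3% and 47.995% of the 7257. Of the 18 called, all had a negative slope in 2013_2, and 8, or 10 without 2013_42, had one in 2013_4. These libraries are among the 17 whose fit called the 18, so that this describes where the calls come from, and without 2013_2 only 2 of the 18 passed. In both series the slope of Mle_024479 was negative, at -0.25 in 2013_4 and -0.22 in 2013_2, and so was that of Mle_021210, at -0.22 in 2013_4 and -0.31 in 2013_2, both given with no test.

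**Figure D4:**
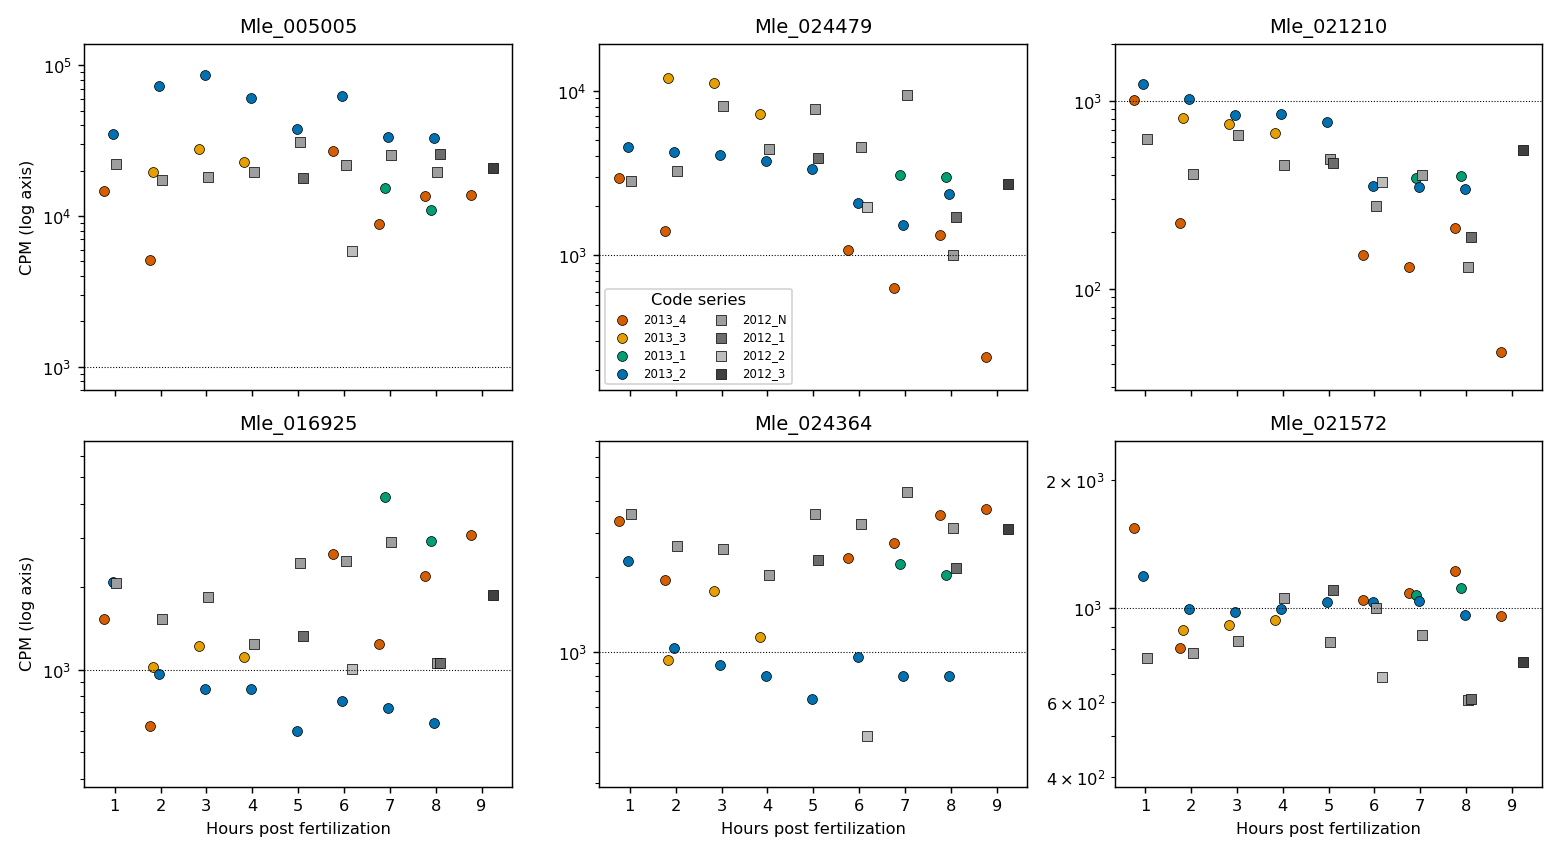
CPM (log axis) against the hour for 6 of the 91 transcripts in all 31 libraries, circles 2013 and squares 2012, coloured by code series; the dotted line is at 1000 CPM. Mle_024479 and Mle_021210 are lower at the late hours in 2013, Mle_016925 and Mle_024364 are low in series 2013_2 throughout the later hours, Mle_005005 is highest in series 2013_2, and Mle_021572 stays between 805 and 1219 CPM from 2 hpf on in 2013.

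The transcripts most like Mle_024479 over the 17 libraries, by Pearson's r of log2 CPM, were Mle_009415 (r = 0.94), Mle_021210 (r = 0.92) and Mle_030729 (r = 0.85). Mle_009415 is named after its values were seen. The points share libraries and their depth, and the coefficients are a description. Over all 4095 pairs of the 91, the median r was -0.02, and 149 pairs had an r above 0.8, with quartiles of -0.37 and 0.38.

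The level at 6 to 9 hpf was then set against that at 2 to 5 hpf. Over the 9 later and 8 earlier libraries of 2013, 3 of the 91 were higher and 13 lower (edgeR's quasi-likelihood test, adjusted p under 0.05). Of all 21199 transcripts tested, 32.6% were higher and 13.8% lower, and the median difference was -0.10 log2 over the 91 and 0.73 over all. Of the 94 transcripts between 500 and 1000 CPM at 1 hpf, 4 were higher and 12 lower, with a median of -0.01. Of the 1423 between 100 and 500 CPM, 54 were higher and 317 lower, with a median of -0.17. With RLE factors the median over the 91 was 0.13, with 6 higher and 6 lower (against 41.2% and 9.69% of all), and with library totals alone it was 0.01, with 17 higher and 12 lower (against 31.9% and 11.4%), so that its sign depends on the scaling. All 13 were among the 18 that fell by slope, and 6 of the 13 and 3 of the 3 passed under all 3 scalings. Leaving out code series 2013_4 or library 2013_42 moved the number that were higher: without the series 23 were higher and 17 lower, against 20.1% and 18.5% of all, and without 2 hpf 2013_42 the counts were 18 higher and 16 lower, against 32.6% and 18.7% of all. Without 2 hpf 2013_32 or 4 hpf 2013_24, 1 was higher, against 5924 of 21193 and 5876 of 21177 transcripts, and without series 2013_2 none of the 91 was called in either direction, against 3.92% higher and 0.55% lower of all.

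Mle_024479 ran from 242 to 3063 CPM with a median of 1519 CPM at 6 to 9 hpf, and from 1398 to 12034 CPM with a median of 4171 CPM at 2 to 5 hpf. It was lower by -1.77 log2 (SE 0.46, adjusted p = 0.0058, edgeR), and by -0.996 without series 2013_3 (adjusted p = 0.088). Mle_021210 ran from 46.2 to 397 CPM with a median of 339 CPM at 6 to 9 hpf, and from 223 to 1025 CPM with a median of 788 CPM at 2 to 5 hpf, a difference of -1.46 log2 (SE 0.36, adjusted p = 0.00421, edgeR). For both, the groups overlapped only through 2 hpf 2013_42. Without series 2013_2 neither call passed (adjusted p = 0.0606 for Mle_024479 and 0.101 for Mle_021210).

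Of the 3 that were higher, Mle_016925 ran from 640 to 4251 CPM with a median of 2182 CPM at 6 to 9 hpf, and from 600 to 1217 CPM with a median of 910 CPM at 2 to 5 hpf (1.13 log2, SE 0.37, adjusted p = 0.0182, edgeR). Mle_017336 (525 bases) ran from 976 to 3273 CPM with a median of 1871 CPM at 6 to 9 hpf, and from 551 to 1574 CPM with a median of 1218 CPM at 2 to 5 hpf (0.79 log2, SE 0.29, adjusted p = 0.034, edgeR). The groups overlapped for both. With the replicate block by code series, neither passed (0.25 log2, adjusted p = 0.572 for Mle_016925, and 0.68 log2, adjusted p = 0.125 for Mle_017336), and Mle_017336 did not pass without 2 hpf 2013_42 (0.66 log2, adjusted p = 0.0688) or in 12 of the other 28 alternatives, which include leaving out 2013_32, 2013_24, 2013_34, 2013_25, 2013_17 or 2013_18.

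Other transcripts hardly moved. Mle_021572 (1917 bases) had the smallest coefficient of variation over the 17 libraries (9.46%). It was at 1057 ± 79 CPM at 6 to 9 hpf (SD, n = 9) and 942 ± 73 CPM at 2 to 5 hpf (SD, n = 8), with all values from 805 to 1219 CPM. Mle_030661 (1627 bases, 10.2%) was at 1015 ± 110 CPM at 6 to 9 hpf and 1138 ± 66 CPM at 2 to 5 hpf, with all values from 878 to 1222 CPM. The coefficient over the 91 had a median of 39.4% and was largest for Mle_024479 (93.0%). The highest library was 1.39 to 49.7 times the lowest, with a median of 4.07 times, and 8 of the 91 varied more than 10-fold. In 2012, Mle_021572 ran from 608 to 1103 CPM and Mle_030661 from 1046 to 1620 CPM. On the TMM scale over all 31 libraries, with a factor of 0.474 for 2 hpf 2013_42, both were less even than by library totals.

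The spread between libraries of an hour was set beside that between the means of the hours. The SD of log2 CPM between libraries of an hour had a median of 0.56 over the 91, and the SD between the means of the hours had a median of 0.44. The spread within hours was the larger in 58 of the 91 (63.7%), against 57.0% of the 7257 transcripts. A mean of few libraries carries part of their spread, so how far the hours alone differed was not measured.

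The code series were then compared at matched hours. In a fit with the hour as a factor and the code series as a term over the 17 libraries of 2013, 4 of the 91 were higher and 6 lower in 2013_4 than in 2013_2 (edgeR's quasi-likelihood test, adjusted p under 0.05), where 3.5% of all transcripts tested were higher and 5.47% lower. Between 2013_3 and 2013_2, 3 were higher and 0 lower, against 9.35% and 1.64% of all. Between 2013_1 and 2013_2, 4 were higher and 0 lower, against 1.51% and 0.708% of all. At an unadjusted p under 0.05, 24, 11 and 20 of the 91 differed in the 3 contrasts, against 5394, 5810 and 3428 of the 21199 transcripts tested. DESeq2 called 5 lower in 2013_3 (against 2.71% of all) and 2 lower in 2013_1 (against 3.54%). With RLE factors 8 were higher and 2 lower in 2013_4 (against 5.6% and 3.18% of all), and with library totals alone 9 and 7 (against 2.69% and 3.16%). The 3 contrasts share the 2013_2 libraries.

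These counts moved with single libraries, and so did those over all transcripts, which are given with them. Between 2013_4 and 2013_2 they were 10 higher and 14 lower without 2 hpf 2013_42 (against 8.62% and 9.35% of all) and 14 higher and 5 lower without 8 hpf 2013_48 (6.7% and 9.69%). They were 1 and 1 without 7 hpf 2013_47 (0.811% and 1.22%) or 7 hpf 2013_27 (0.712% and 1.23%), and 4 and 3 without 2013_28 (2.41% and 4.39%). They were 3 and 3 without any 1 of 2013_32, 2013_23, 2013_33, 2013_24, 2013_34, 2013_26, 2013_46, 2013_17 and 2013_18, where between 1.14% and 2.62% of all were higher and between 2.65% and 4.19% lower. For 2013_3 against 2013_2, 0 were higher without any 1 of the 6 libraries of 2 to 4 hpf of these series, or without 7 hpf 2013_17 or 2013_27 or 8 hpf 2013_18 or 2013_28, where between 2.41% and 9.62% of all were higher, and 1 was higher without 2013_26, 2013_46 or 2013_47 (between 5.9% and 6.87%). They were 4 higher and 3 lower without 2013_42 (12.5% and 4.7%) and 5 higher without 2013_48 (9.57%). For 2013_1 against 2013_2, 0 were higher without 7 hpf 2013_17 or 2013_27 or 8 hpf 2013_18 or 2013_28 (between 0.00957% and 0.384%), 1 was higher without 2013_47 (0.61%), and 2 were higher without 2013_32, 2013_23, 2013_33, 2013_24, 2013_34, 2013_26 or 2013_46 (between 0.568% and 1.13%). Without 2 hpf 2013_42, 12 were higher and 1 lower (6.8% and 3.74%), and without 8 hpf 2013_48, 8 were higher (2.94%).

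Mle_005005, the most abundant of the 91, was lower in 2013_4 than in 2013_2 at each hour they share after 1 hpf. It was at 5131, 27102, 8899 and 13637 CPM in 2013_4 at 2, 6, 7 and 8 hpf, and at 72900, 62508, 33429 and 32902 CPM in 2013_2 at these hours. In the 1 hpf libraries, whose values chose the 91, it was at 14759 CPM in 2013_41 and 34940 CPM in 2013_21. The difference over 2 to 9 hpf was -2.03 log2 (SE 0.49, adjusted p = 0.0267, edgeR), and it did not pass with RLE factors (-1.75, adjusted p = 0.0573) or without any 1 of 12 libraries (2013_32, 2013_23, 2013_33, 2013_24, 2013_34, 2013_26, 2013_46, 2013_17, 2013_27, 2013_47, 2013_18 and 2013_28), with adjusted p from 0.0553 to 0.152 and values from -1.97 to -2.33. In 2013_3 it was at 19624, 27995 and 22853 CPM at 2, 3 and 4 hpf, against 72900, 86574 and 61033 CPM in 2013_2 (-1.52 log2, SE 0.53, adjusted p = 0.0866). In 2013_1 it was at 15266 and 10898 CPM at 7 and 8 hpf, against 33429 and 32902 CPM in 2013_2 (-1.39 log2, SE 0.64, adjusted p = 0.315). At every hour from 2 hpf that it shares with another series, 2013_2 held the highest level of the libraries of 2013, and its lowest value, 32902 CPM, was above all 12 libraries of 2012, which ran from 5846 to 31114 CPM. Its slope over the hours was -0.23 log2 per hour (SE 0.11, adjusted p = 0.0903).

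Mle_024364 (565 bases) was higher in 2013_4 than in 2013_2. It was at 3327, 1937, 2382, 2718 and 3515 CPM in 2013_4 at 1, 2, 6, 7 and 8 hpf, and at 2309, 1034, 959, 804 and 800 CPM in 2013_2. The difference was 1.63 log2 (SE 0.28, adjusted p = 0.00654, edgeR), and it passed in all 23 alternatives run. After 1 hpf, whose values chose the 91, all 4 libraries of 2 to 8 hpf in 2013_4 were above all 7 of 2013_2.

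Mle_015292 (444 bases), second of all transcripts per length at 1 hpf (14920 RPKM), was at 9741, 2447, 1560, 4312 and 3587 CPM in 2013_4 at 1, 2, 6, 7 and 8 hpf, and at 3508, 1162, 1142, 917 and 1160 CPM in 2013_2. The 1 hpf values come from the libraries that chose the transcripts followed here, and the fit left these libraries out. The difference in the fit was 1.41 log2 (SE 0.31, adjusted p = 0.0185, edgeR). Its adjusted p was 0.0974 without 7 hpf 2013_47 and 0.0984 without 7 hpf 2013_27. It was also higher in 2013_3, at 3048, 3089 and 2080 CPM at 2, 3 and 4 hpf, against 1162, 1022 and 764 CPM in 2013_2 (1.36 log2, SE 0.35, adjusted p = 0.0315). That call was lost without any 1 of 11 libraries (the 6 of 2 to 4 hpf in both series, 2013_17, 2013_27, 2013_47, 2013_18 and 2013_28), with adjusted p from 0.0525 to 0.184.

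Lower in 2013_4 with Mle_005005 was Mle_030729 (2728 bases), at 1001, 460, 211, 114 and 206 CPM in 2013_4 at 1, 2, 6, 7 and 8 hpf and at 1404, 1203, 637, 460 and 420 CPM in 2013_2. Here too the 1 hpf values are those of the selecting libraries, which the fit left out. The difference in the fit was -1.51 log2 (SE 0.27, adjusted p = 0.0086, edgeR). Its adjusted p was 0.0591 without 7 hpf 2013_47 and 0.0504 without 7 hpf 2013_27. Mle_024479 stood on both sides of 2013_2. It was lower in 2013_4 (-1.16 log2, SE 0.31, adjusted p = 0.0392) and higher in 2013_3 (1.24 log2, SE 0.34, adjusted p = 0.041). The second call was lost with RLE factors (adjusted p = 0.0532) and without any 1 of 13 libraries, the 6 of 2 to 4 hpf in both series, 2013_26, 2013_46, 2013_17, 2013_27, 2013_47, 2013_18 and 2013_28 (adjusted p from 0.068 to 0.228).

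In 2013_1, Mle_016925 was at 4251 and 2941 CPM at 7 and 8 hpf, against 727 and 640 CPM in 2013_2 (2.41 log2, SE 0.43, adjusted p = 0.0183, edgeR). Mle_022892 (464 bases) was at 2754 and 1516 CPM, against 429 and 423 CPM in 2013_2 (2.18 log2, SE 0.36, adjusted p = 0.0142, edgeR). Neither passed with library totals alone (2.21, adjusted p = 0.0628, and 1.96, adjusted p = 0.0772) or without 7 hpf 2013_17 (2.13, adjusted p = 0.366, and 1.69, adjusted p = 0.357). Both calls were also lost without 2013_27, 2013_18 or 2013_28, and that of Mle_016925 without 2013_47 (adjusted p = 0.0526).

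**Figure D5:**
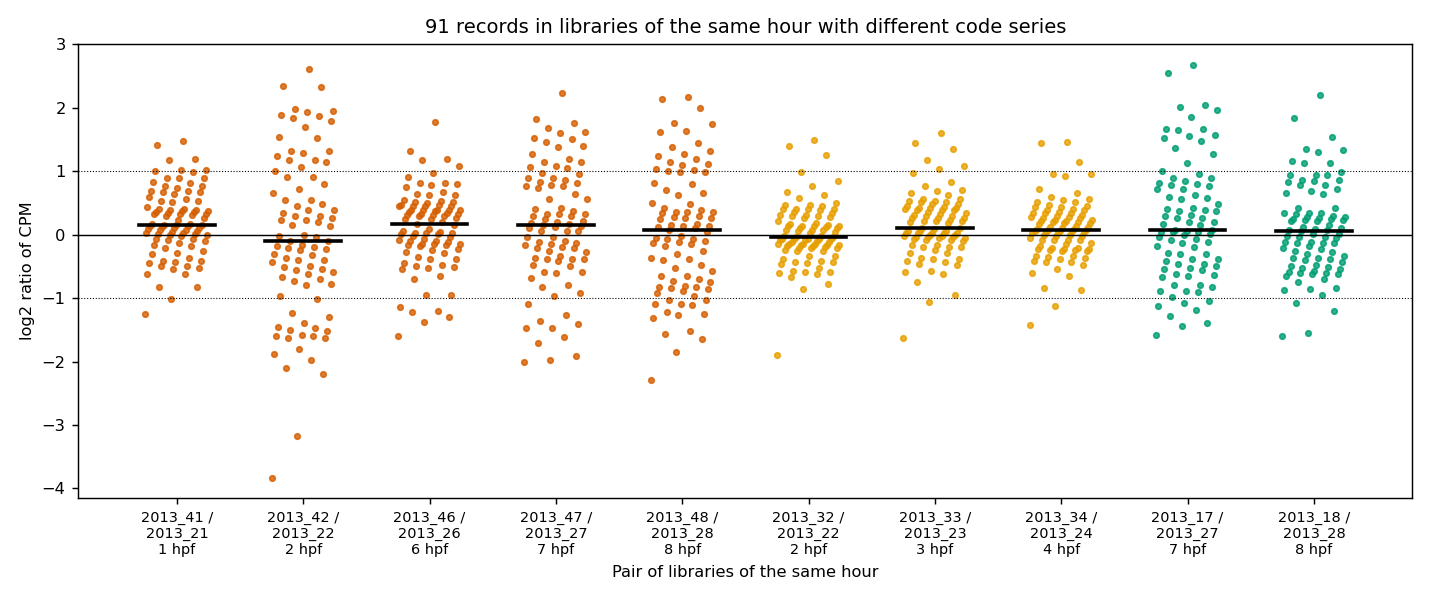
Log2 ratio of CPM of each of the 91 transcripts between libraries of the same hour, 2013_4 (orange red), 2013_3 (yellow) and 2013_1 (green) over 2013_2; bars are medians and dotted lines 2-fold. The pairs of 2 to 4 hpf with 2013_3 are narrow, with 83 to 87 of the 91 within 2-fold, and the pair with 2013_42 is the widest, with 50.

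By pairs of libraries, with no test, the series differed by hour. In 2013_4 over 2013_2, 6 of the 91 were at least 2-fold higher and 2 lower at 1 hpf (against 5.38% and 21.4% of all transcripts that averaged 10 CPM or more in the pair), 21 and 20 at 2 hpf (9.77% and 46.6%), 5 and 6 at 6 hpf (7.5% and 9.65%), 18 and 11 at 7 hpf (15.4% and 14.1%) and 19 and 14 at 8 hpf (22.6% and 6.77%). The 1 hpf pair was the one that chose the 91, and nothing is read from it. In 2013_3 over 2013_2, 3 were higher and 1 lower at 2 hpf (4.24% and 3.74%), 6 and 2 at 3 hpf (5.64% and 6.14%) and 3 and 2 at 4 hpf (6.68% and 5.5%). In 2013_1 over 2013_2, 17 were higher and 8 lower at 7 hpf (17.3% and 6.02%) and 9 and 4 at 8 hpf (10.9% and 5.98%). Fewer of the 91 differed 2-fold in the pairs of 2 to 6 hpf, apart from that with 2013_42, than in those of 7 and 8 hpf. Over all transcripts averaging 10 CPM or more, 82.8% to 92.0% stayed within 2-fold in the former and 70.4% to 83.2% in the latter. Apart from 2013_42, the pairs of 2 to 4 hpf were all with 2013_3, so that hour and series could not be told apart there.

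The difference between matched libraries was also set against the length of the transcript. This was looked at after the named transcripts were seen to include several short ones, and the division at 1000 bases was taken then. The 24 of the 91 under 1000 bases took from 1.48% (6 hpf 2012_23) to 8.57% (7 hpf 2012_N1) of a library, while the other 67 took from 13.1% to 20.9%. In 2013 their share at 6, 7, 8 and 9 hpf was 3.83%, 5.13%, 4.98% and 5.02% in 2013_4, and at 6, 7 and 8 hpf 2.89%, 2.76% and 3.21% in 2013_2. In 2013_1 it was 4.65% and 4.11% at 7 and 8 hpf.

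Between matched libraries at 7 hpf, the short ones differed by a median of 0.93 log2 in 2013_47 over 2013_27 and the 67 longer ones by -0.10, and at 8 hpf by 1.005 and -0.14 in 2013_48 over 2013_28. In 2013_17 over 2013_27 the medians were 0.67 for the short and -0.06 for the longer ones. At 2 hpf the order was turned, with -0.68 for the short and 0.14 for the longer ones in 2013_42 over 2013_22, and -0.19 and 0.07 in 2013_32 over 2013_22. The medians were 0.39 for the short and 0.05 for the longer ones in 2013_46 over 2013_26, 0.38 and -0.04 in 2013_18 over 2013_28, and 0.35 and 0.06 in 2013_33 over 2013_23. They were nearly equal in 2013_34 over 2013_24, at 0.10 and 0.07, and in the selecting pair, 2013_41 over 2013_21, at 0.19 and 0.15. The short ones thus had the higher median in 7 of the 9 pairs of 2 to 8 hpf, by little in that of 4 hpf, and the lower one in both pairs of 2 hpf. Over all transcripts that averaged 10 CPM or more in the pair, the medians under and above 1000 bases were 0.08 and -0.14 in 2013_47 over 2013_27, 0.81 and 0.25 in 2013_48 over 2013_28, 0.86 and 0.07 in 2013_17 over 2013_27, and -2.34 and -0.80 in 2013_42 over 2013_22. In the other pairs they were -0.16 and 0.04 (2013_32), 0.02 and -0.20 (2013_46), 0.55 and 0.03 (2013_18), -0.04 and -0.05 (2013_33), -0.16 and -0.02 (2013_34), and -0.72 and -0.27 (2013_41), each over 2013_2. The mean length of a transcript per count, a property of the whole library, ran from 2360 bases in 7 hpf 2012_N1 to 3359 bases in 6 hpf 2012_23, the libraries with the highest and the lowest share of the short ones. The part that length has in the calls between code series was not tested.

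In the 12 libraries of 2012, which had no part in the choice and include the 4 overlapping columns, 0 of the 91 rose and 0 fell with the hour (edgeR's quasi-likelihood test over 1 to 9 hpf, with 0.0% of 26689 transcripts called in either direction), with 0 of the 91 and 25 of all at an unadjusted p under 0.05, and DESeq2 called 0 of the 91. The slopes were negative in 81 of the 91 (89.0%), with a median of -0.04 log2 per hour, and in 40.2% of all. They were also negative in 89.4% of the transcripts between 500 and 1000 CPM at 1 hpf and in 90.4% of those between 100 and 500 CPM. With RLE factors 66 and with library totals alone 60 of the 91 were negative. All 18 that fell in 2013 had negative slopes in 2012, as most of the 91 did. Mle_024479 had -0.10 (SE 0.17) and Mle_021210 -0.15 (SE 0.09), and the rising Mle_016925 had -0.03 (SE 0.10).

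The slope of 2013 minus that of 2012 was tested over 29 libraries, leaving out the selecting ones. By edgeR's quasi-likelihood test, 0 of the 91 had a higher and 0 a lower slope in 2013, where 4.03% of 25534 transcripts were higher and 0.0431% lower. At an unadjusted p under 0.05 there was 1 of the 91, and DESeq2 called 0. The difference was -0.32 log2 per hour for Mle_024479 (SE 0.18, adjusted p = 0.273), -0.22 for Mle_021210 (SE 0.12, adjusted p = 0.262) and 0.20 for Mle_016925 (SE 0.12, adjusted p = 0.329). A slope that passed in 2013 and not in 2012 is therefore not shown to differ between the years.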

How the data were processed

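Per the labels' protocols, total RNA of pooled whole embryos was taken with Trizol, polyadenylated RNA was selected on beads, and ScriptSeq V2 libraries were amplified in 15 PCR rounds and size-selected. The labels mention no molecular identifiers, so intervals cover counting error only. The deposited counts are whole numbers per transcript record, with the length of the record (the deposited "transcript_length", in bases). The submitters' processing notes list Bowtie2 and SAMtools. What the reads were aligned to, and how they were counted, is not given in the sources used here, and counts of near-identical records are uncertain. The authors' deposited RPKM values use 1 common total for all libraries and were not used; RPKM was computed from counts, length and each library's total. The 3 hpf library called 2013_23 here has that code in its description and another in its title.

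CPM in the text is scaled by library totals. Tests were fitted on the whole table in R 4.3.3 with edgeR 4.0.16 (filterByExpr with the hour as group, TMM factors, glmQLFit and glmQLFTest, Benjamini-Hochberg adjustment). The code was first run on simulated counts with known slopes or series differences. These had less spread than the slope fits found and no outlying library, and so do not show how the tests fare on these data. SE is the absolute log2 value over the square root of F. DESeq2 1.42.0 and limma 3.58.1 (log2(RPKM + 1) and log2(RPKM + 0.1), for transcripts above 1 RPKM in at least 2 libraries) were alternatives. Slopes within a code series are least squares of log2 CPM with 0.5 counts added and carry no test. The transcripts, lists and tests were chosen with earlier results of these data known. Named transcripts are at most 2 with the largest and 2 with the smallest value among those called per comparison, the 3 most abundant at 1 hpf, and the 2 with the smallest and the 1 with the largest coefficient of variation.

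The codes may mark a shared source, which no label says; fits with the code series as a term stand as alternatives.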

Additional observations from a re-analysis of the deposited data

Results flagged for a closer look

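Of 56 groups of 4 or 5 libraries of an hour checked for a library apart from the others by Dixon's criterion at 95%, over the named transcripts and the share of the 91, 3 were flagged, and chance flags about 1 in 20. Mle_004209 was at 27069 CPM in 2 hpf 2013_42, above the other 3 libraries of that hour at 5226 to 7846 CPM. Mle_021572, the steadiest of the 91 in 2013, was at 688 CPM in 6 hpf 2012_23, below the other 3 libraries of that hour at 1000 to 1045 CPM. Mle_022892 was at 423 CPM in 8 hpf 2013_28, below the other 4 libraries of that hour at 1295 to 1516 CPM.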

How the results depend on the processing

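Counts of the 91 are given as higher and lower. For the slope over 2 to 9 hpf (1 and 18) they were 3 and 6 with RLE factors, 7 and 7 with library totals, 0 and 30 with no filter, 3 and 9 with DESeq2, 5 and 9 with limma at both pseudocounts, 0 and 27 with 1 hpf added, 1 and 3 without series 2013_2, 11 and 21 without 2013_4, 0 and 13 without 2013_3, 0 and 24 with the replicate block by code series, and 0 and 23 with the libraries of 2012 added. For 6 to 9 against 2 to 5 hpf (3 and 13) they were, in this order, 6 and 6, 17 and 12, 1 and 20, 10 and 7, 13 and 14 (14 and 14 with the pseudocount of 0.1), 2 and 17, 0 and 0, 23 and 17, 1 and 8, 2 and 19, and 0 and 26; RLE factors moved the median of all transcripts there by 0.33 log2. For 2013_4 against 2013_2 (4 and 6) they were 8 and 2 with RLE factors (median of all moved by 0.26), 9 and 7 with totals, 12 and 6 with no filter, 25 and 6 with DESeq2, and 6 and 7 or 7 and 9 with limma. For 2013_3 (3 and 0) they were 2 and 0 with RLE factors, 5 and 2 with totals (median of all moved by 0.12), 2 and 2 with no filter and 7 and 5 with DESeq2, and for 2013_1 (4 and 0) 2 and 0 with RLE factors (median of all moved by -0.16), 0 and 0 with totals (by -0.18), 6 and 1 with no filter, 13 and 2 with DESeq2 and 0 and 0 with limma. Of all transcripts tested, these settings called 11.3% (2012 added) to 9965 of the 21199 (RLE factors) higher and 2.06% to 17.1% lower for the slope, 3.92% to 41.2% and 0.55% to 18.5% for the later against the earlier hours, 2.69% to 8.43% and 3.16% to 9.29% for 2013_4, 5.81% to 11.8% and 0.939% to 2.71% for 2013_3, and 0.335% to 2.96% and 0.33% to 3.54% for 2013_1. The cause was not tested.

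With 1 library left out, the counts ran from 0 to 7 and 14 to 20 for the slope, 1 to 18 and 12 to 16 for the later against the earlier hours, 1 to 14 and 1 to 14 for 2013_4, 0 to 5 and 0 to 3 for 2013_3, and 0 to 12 and 0 to 1 for 2013_1. Of all transcripts, these fits called 33.4% to 41.6% and 9.72% to 19.2%, 27.3% to 37.3% and 11.6% to 18.7%, 0.712% to 8.62% and 1.22% to 9.69%, 2.41% to 12.5% and 0.377% to 4.7%, and 0.00957% to 6.8% and 0.0239% to 3.74%, in the same order. The slope in 2012 and its difference between the years stayed at 0 and 0 in every alternative run, those without the overlapping columns included. None of the values of named transcripts that were tested changed its direction in these alternatives.

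TMM factors were 0.474 for 2 hpf 2013_42 and 0.659 to 1.32 for the other libraries of 2013. As a percent of the library total multiplied by its factor, which is no share of the counts, the mean level of the 91 was 31.04%, 32.8%, 24.3%, 19.2%, 15.9%, 22.6%, 22.4%, 15.6% and 18.2% at 1 to 9 hpf. This mean level was 23.9% at 2 hpf without 2013_42, an alternative added after seeing the data. By library totals and without Mle_005005, the share of the other 90 was 20.99%, 19.5%, 17.4%, 16.4%, 15.3%, 18.3%, 19.5%, 16.95% and 18.99% at 1 to 9 hpf. With 1 library left out, the share of all 91 by library totals ran from 22.1% to 24.9% at 1 hpf, 21.9% to 24.2% at 2 hpf, 21.4% to 24.99% at 3 hpf, 19.03% to 22.1% at 4 hpf, 22.2% to 23.4% at 6 hpf, 21.1% to 21.8% at 7 hpf and 18.2% to 19.3% at 8 hpf. From 1 to 9 hpf, 43 fell and 2 rose with TMM factors, 34 and 13 at 1.5-fold, 5 and 0 with 8 hpf as the end and 13 and 5 with 2 hpf as the start. Without 2 hpf 2013_42 in that start, an alternative added after seeing the data, 19 fell and 14 rose. With 1 of the 1 hpf libraries left out, 21 to 23 fell, 60 to 64 held and 4 to 10 rose.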
